A study of Mus musculus with 23 samples.

Results

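Stambpl1, Fabp7, Plac1, Slc16a6 and Il23a are 5 of the 24506 entries of an expression table covering oocytes, zygotes and 2-cell embryos of the mouse, with Cxxc1 intact or deleted. They were picked from that table because their values lay low in wild-type groups and high after Cxxc1 deletion, with no numerical limit stated. Their deletion differences are therefore given as a description, without a test. All 5 were among the 13776 genes kept by the filter on low values (at least 1 FPKM, the number of fragments per kilobase of transcript scaled to a library's mapped fragments, in at least 2 libraries). They could pass it through the deletion libraries alone, so passing it says nothing of their wild-type level.

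The 23 RNA libraries formed 8 groups. Germinal vesicle (GV) oocytes, arrested in the first meiotic prophase, came from wild-type females aged 3 weeks, from Cxxc1fl/fl;Zp3-Cre females aged 3 weeks, from wild-type females aged 3 months and from Cxxc1fl/fl;Gdf9-Cre females aged 3 months. Zygotes and 2-cell embryos came either from wild-type parents or from Cxxc1fl/fl;Zp3-Cre females mated to wild-type males, so the latter inherit an intact paternal Cxxc1. Each group held 3 libraries, except 2 for wild-type 2-cell embryos. The Zp3 promoter drives Cre in growing oocytes and the Gdf9 promoter from an earlier follicle stage, so Cre driver and female age change together between the 2 GV models. The labels do not give the age of the embryos' mothers, the number of oocytes or embryos in an RNA library, or whether wild-type females carried floxed alleles. They do not say that replicate libraries stem from different animals either, so every p-value reflects library-to-library spread alone, part of which may be technical.

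Cxxc1 encodes CFP1, which binds unmethylated CpG dinucleotides through its CXXC zinc finger and belongs to the SETD1 complexes that place methyl groups on lysine 4 of histone H3 at promoters. Fully grown oocytes are nearly silent in transcription, and the early embryo lives on stored maternal RNA until its own genome is switched on. The chosen genes have known roles far from the oocyte. STAMBPL1 is a metalloprotease that trims ubiquitin chains, FABP7 is the fatty-acid binding protein of radial glia and astrocytes, SLC16A6 belongs to the monocarboxylate transporter family, PLAC1 is an X-linked product of trophoblast, and IL23A is the subunit that joins IL12B to form the cytokine interleukin-23.

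Because CFP1 binds CpG, promoter windows of the members are shown with every CG in capitals. The table of RefSeq promoters used here (GRCm38.p6) matched 3 of the 5 members, Stambpl1, Fabp7 and Plac1, with 7 start sites in all. Each window ends 1 base before the annotated start and is printed 5′ to 3′ on the strand of the gene. For Stambpl1 (chr19:34191979-34192228, plus strand) and Plac1 (chrX:53240111-53240360, minus strand) the most upstream listed start is shown, and Fabp7 (chr10:57784673-57784922, plus strand) has 1.
Stambpl1: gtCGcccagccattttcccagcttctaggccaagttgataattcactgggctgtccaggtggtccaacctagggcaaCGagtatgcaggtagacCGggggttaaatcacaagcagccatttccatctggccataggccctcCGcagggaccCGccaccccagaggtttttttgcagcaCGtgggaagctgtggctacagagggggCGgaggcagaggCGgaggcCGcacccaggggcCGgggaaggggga
Fabp7: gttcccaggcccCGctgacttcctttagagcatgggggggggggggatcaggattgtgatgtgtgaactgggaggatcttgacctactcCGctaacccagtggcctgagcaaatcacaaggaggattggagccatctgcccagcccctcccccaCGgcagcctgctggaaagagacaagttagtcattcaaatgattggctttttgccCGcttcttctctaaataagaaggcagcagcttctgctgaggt
Plac1: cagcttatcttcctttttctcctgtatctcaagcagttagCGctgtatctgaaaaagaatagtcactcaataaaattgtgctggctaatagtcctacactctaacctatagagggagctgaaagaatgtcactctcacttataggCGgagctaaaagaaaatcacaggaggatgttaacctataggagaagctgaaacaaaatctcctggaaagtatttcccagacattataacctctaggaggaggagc
These 250 bases hold 10 CG in Stambpl1, 4 in Fabp7 and 2 in Plac1. CG reads alike on both strands and does not overlap itself. Among 32851 RefSeq promoter windows of this length the median was 6 (quartiles 2 and 16). At least as many CG as in the Stambpl1 window were found in 37.8% of them, at least as many as in Fabp7 in 62.2% and at least as many as in Plac1 in 81.2%. The other 3 Stambpl1 starts had 14, 2 and 2 CG, and the other Plac1 start had 4. In the windows shown Stambpl1 thus lay above the median and Fabp7 and Plac1 below it. For Stambpl1 the side depended on the start taken. The build behind the FPKM values is not stated (mm10 and mm9 are both named in the submitters' processing notes), so it was not established which of these starts the RNA came from.

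The targeted gene was checked first. Cxxc1 lay at 35.7 to 41.5 FPKM in the 6 wild-type GV libraries and at 0.698 to 1.49 in the 6 deletion GV libraries, at 24.0 to 30.7 against 1.11 to 1.61 in zygotes, and at 9.94 and 11 against 1.17, 0.626 and 4.16 in 2-cell embryos, so no library went against its label. All 12 oocyte markers had group means of at least 1 FPKM in each GV and zygote group. Deletion 2-cell library 3 stood apart. Its summed granulosa markers were 276 FPKM against 45.4 and 45.4 in libraries 1 and 2, its mesenchyme and blood markers 214 against 15.8 and 14.9, and its immune markers 71.0 against 15.5 and 9.90. Every 2-cell result below is given with and without it where that matters. Among GV oocytes the Gdf9-Cre libraries had the highest summed granulosa markers, at 191 to 294 FPKM against 142 to 150 in wild type of 3 months. Pearson's r across genes between libraries of the same group was 0.936 to 0.993.

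Stambpl1 had the largest difference of the 5 in GV oocytes. Its level was 0.545, 0.890 and 0.737 FPKM in the 3-week wild-type libraries and 33.1, 35.7 and 52.6 after Zp3-Cre deletion. At 3 months it was 1.01, 0.708 and 1.38 in wild type and 90.5, 78.0 and 59.1 after Gdf9-Cre deletion. Every deletion library was above every wild-type library, with 55.9-fold and 73.5-fold between the group means. In zygotes Stambpl1 measured 1.46, 2.24 and 1.88 FPKM with maternal Cxxc1 and 25.5, 20.5 and 35.6 when the mother lacked it. In 2-cell embryos it was at 0.800 and 0.617 in wild type and 13.1, 34.9 and 17.7 after deletion, where library 2, not the library that stood apart, was the highest. The differences in log2(FPKM + 1), a scale that makes changes of low genes look smaller than they are, were 4.56 in 3-week oocytes, 5.23 in 3-month oocytes, 3.28 in zygotes and 3.63 in 2-cell embryos (3.72 without library 3). Ordered by rise among all 13776 genes, Stambpl1 stood at place 3, 1, 53 and 15. Its deletion groups followed the order 3-month GV, 3-week GV, zygote and 2-cell, and the last 3 overlapped with their neighbour in that order.

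Fabp7 was the member whose deletion levels varied least apart from Slc16a6. Wild-type 3-week oocytes held 2.34, 2.62 and 2.34 FPKM, and the deletion libraries 14.1, 11.9 and 25.6. Wild-type 3-month oocytes held 1.57, 2.70 and 5.0 FPKM, against 31.4, 31.4 and 28.3 after deletion. The groups did not overlap at either age. Wild-type zygotes were listed at 0, 0.621 and 0.594 FPKM of Fabp7 and deletion zygotes at 14.1, 17.5 and 23.4. Wild-type 2-cell embryos were at 0.422 and 0.486 and deletion embryos at 20.0, 22.1 and 10.4, the lowest of these being library 3. An exact 0 in such a table can be a failed estimate. The log2 differences were 2.33, 3.02, 3.79 and 3.61 (3.92 without library 3), and the deletion group means spanned 1.76-fold from the lowest to the highest. In that order of groups Fabp7 stood at place 26, 34, 20 and 18 by rise. Among its deletion groups the zygote, 2-cell and 3-week GV ranges overlapped.

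Slc16a6 matched its description in oocytes and zygotes but not in 2-cell embryos. Wild-type 3-week oocytes held 1.14, 1.43 and 0.772 FPKM against 28.8, 26.4 and 20.6 after deletion, and 3-month oocytes 0.608, 0.665 and 0.525 against 30.2, 31.6 and 25.6. Zygotes held 2.1, 2.36 and 2.2 FPKM against 41.8, 22.1 and 42.5. In 2-cell embryos the wild type itself held 37.9 and 40.9 FPKM, and the deletion libraries held 26.0, 23 and 32.5. Wild-type 2-cell embryos thus had the highest mean of all 8 groups, and all 3 deletion libraries lay below both wild-type ones. The log2 differences were 3.64, 4.23, 3.44 and -0.53 (-0.66 without library 3), and by rise the gene stood at place 5, 3, 43 and 9918. The 5 groups with the highest means, wild-type 2-cell embryos and the 4 deletion groups, each overlapped with the next in order.

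Plac1 was the lowest of the 5 in wild-type GV oocytes of 3 weeks, on a per-length scale. Its level there was 0.187, 0.764 and 0.336 FPKM, against 13, 10.7 and 11 after Zp3-Cre deletion. At 3 months it was 0.974, 0.934 and 0.549 in wild type and 37.0, 34 and 26.1 after Gdf9-Cre deletion. No wild-type library of either age reached 1 FPKM. Zygotes were listed at 0, 0.800 and 0.960 FPKM of Plac1 in wild type and 11.8, 12.9 and 15.1 after deletion, and 2-cell embryos at 0.273 and 0.472 against 3.53, 9.45 and 10.6. In the 2-cell group library 1, not library 3, was the low one. The log2 differences were 3.15, 4.19, 3.22 and 2.58 (2.33 without library 3), with places 8, 4, 59 and 135 by rise.

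Il23a had the highest wild-type levels of the 5 in GV oocytes of 3 weeks and, after deletion, the widest range between groups. Wild-type 3-week oocytes held 2.38, 4.34 and 3.65 FPKM against 18.6, 18.3 and 22.2 after deletion. Those of 3 months held 1.58, 1.38 and 3.97 against 40.6, 39.1 and 35.4. The 3-month deletion libraries were above all others in the study. Zygotes held 3.35, 3.60 and 5.19 against 25.9, 26.9 and 27.3, and 2-cell embryos at 0.409 and 0.473 against 5.45, 7.26 and 6.36. The 4 deletion groups did not overlap with one another, and their means spanned 6.03-fold. The log2 differences were 2.24, 3.65, 2.48 and 2.34 (2.34 without library 3), with places 29, 8, 211 and 228.

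**Figure D1:**
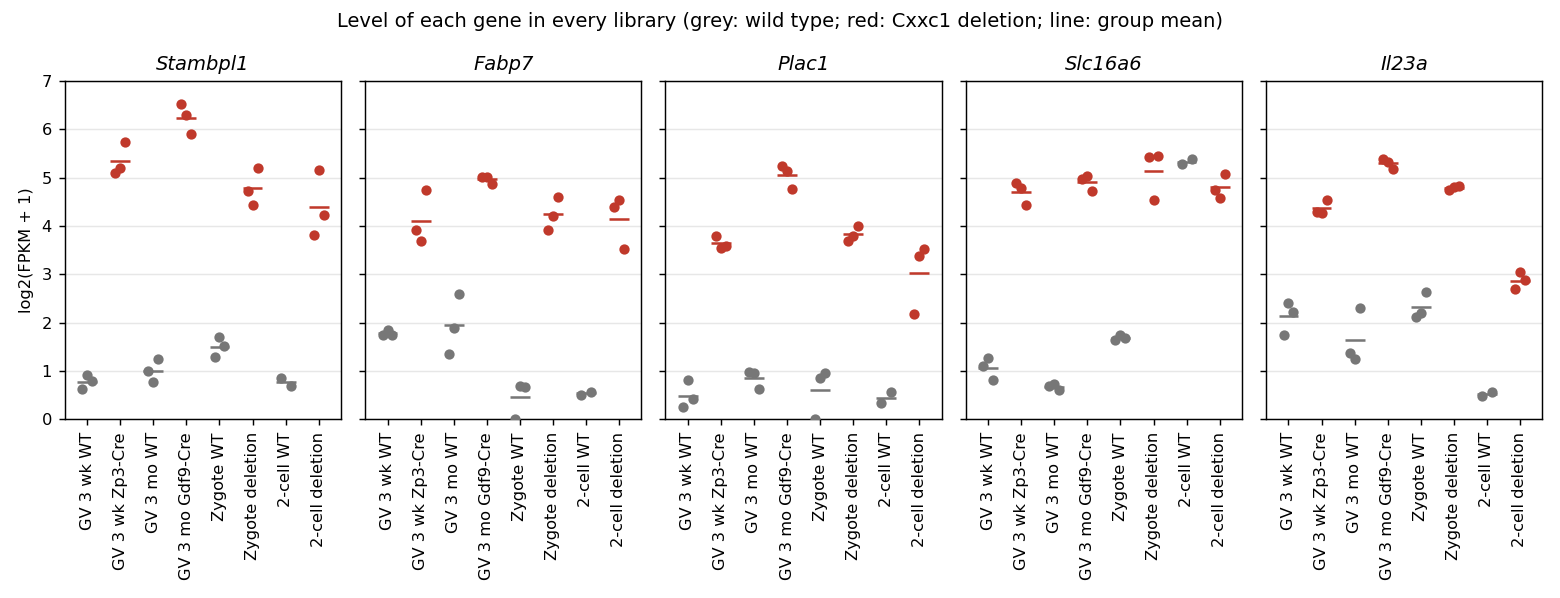
Level of each gene, as log2(FPKM + 1), in every library of the 8 groups, with wild type in grey, Cxxc1 deletion in red and a line at the group mean. Deletion libraries lie above wild-type libraries of the same stage in every panel except for Slc16a6 in 2-cell embryos, where wild type is at 37.9 and 40.9 FPKM and deletion at 23 to 32.5.

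Over the 5 genes the median log2 difference was 3.15 in 3-week oocytes, 4.19 in 3-month oocytes, 3.28 in zygotes and 2.58 in 2-cell embryos, against 0.09, 0.20, 0.22 and 0.16 over all genes tested. Libraries of deletion and wild type did not overlap for any of the 5 in any of the 4 comparisons. Slc16a6 in 2-cell embryos was the 1 case in which deletion was lower. The genes were picked for such a separation, and the share of all genes without overlap was not counted. For scale, 18.3% of all genes were called higher in 3-week oocytes and 11.3% lower, 34.2% higher and 15.2% lower in 3-month oocytes, 35.3% higher and 11.4% lower in zygotes, and 37.1% higher and 29.4% lower in 2-cell embryos. A call is a Benjamini-Hochberg adjusted p under 0.05 in limma. The higher share of the calls moved with the scaling. It was 61.8%, 69.2%, 75.6% and 55.8% as deposited and 45.2%, 47.7%, 40.9% and 45.6% under median-of-ratios scaling, so the direction of small changes below depends on it. Of 4617 genes with wild-type group means under 5 FPKM in all 4 wild-type groups, 61 had a log2 difference of at least 1 in all 4 comparisons. Ordered by their mean difference, Stambpl1 was 1st, Plac1 2nd, Fabp7 3rd and Il23a 6th, and Slc16a6 was not among them. The members were picked by these same values, so their high places follow from the choice and are a description only. In bulk libraries like these, a change in the RNA of each cell cannot be told apart from a change in how many cells carry it.

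Differences by stage and age were not part of the rule and were tested. The rule did use that wild-type levels were low, which limits how far a member can move between wild-type groups. Plac1 stayed under 1 FPKM in all 11 wild-type libraries and passed the filter only through deletion libraries, so its wild-type intervals describe values near the lower end of the scale. Between wild-type GV oocytes of 3 months and 3 weeks none of the 5 was called, against 3.95% of all genes (limma; none of the 5 had an adjusted p below 0.255, that of Il23a). The 95% interval of the difference was -0.34 to 0.79 for Stambpl1, -0.48 to 0.81 for Fabp7, -0.80 to 0.02 for Slc16a6, -0.24 to 0.96 for Plac1 and -0.94 to -0.03 for Il23a. Without wild-type 3-month library 3 Il23a was called, at -0.82 (adjusted p = 0.0161).

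From the wild-type 3-week GV oocyte to the wild-type zygote 3 of the 5 were called, where 70.1% of all genes were and the median of all genes was -0.47. Fabp7 fell by 1.32 on the log2 scale (SE 0.308, adjusted p = 7.13e-04), from 2.34 to 2.62 FPKM down to at most 0.621. Slc16a6 rose by 0.62 (SE 0.194, adjusted p = 0.00769) and Stambpl1 by 0.73 (SE 0.270, adjusted p = 0.022). The Stambpl1 call was lost without wild-type 3-week library 1 (adjusted p = 0.0711) or zygote library 2 (0.0778), and the Fabp7 call under quantile normalization (-0.72, adjusted p = 0.0721). Il23a differed by 0.19 (95% interval -0.27 to 0.64) and Plac1 by 0.11 (-0.49 to 0.71). The mothers' ages may differ between these 2 stages, and age and stage then cannot be told apart.

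From the wild-type zygote to the wild-type 2-cell embryo 3 of the 5 were called, against 68.5% of all genes. Slc16a6 rose by 3.65 (SE 0.217, adjusted p = 9.55e-12), from a mean of 2.22 to 39.4 FPKM, and was called in all 15 settings tried. Il23a fell by 1.79 (SE 0.242, adjusted p = 1.52e-06), with both 2-cell libraries under every zygote library. Stambpl1 fell by 0.74 (SE 0.302, adjusted p = 0.037) but was called in 8 of 15 settings, and without 2-cell library 2 its adjusted p was 0.152. Fabp7 (0.08, 95% interval -0.64 to 0.80) and Plac1 (-0.15, -0.82 to 0.52) were not called. Both comparisons share the zygote libraries.

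The same steps were tested among the deletion groups. The rule also used that levels were high after deletion in oocytes and embryos. That limits how far a member can move between deletion groups, so few calls here follow in part from the choice. From 3-week Zp3-Cre oocytes to zygotes of such females none of the 5 was called, where 64.9% of all genes were. The unadjusted 95% interval excluded 0 for Slc16a6 alone (0.43, 0.02 to 0.84, adjusted p = 0.0599). The other differences were -0.56 for Stambpl1, 0.43 for Il23a, 0.19 for Plac1 and 0.13 for Fabp7. Slc16a6 and Il23a were called higher in zygotes under median-of-ratios scaling (0.83 and 0.82) and quantile normalization, which shift the median of all genes here by 0.24 and 0.38. Slc16a6 was also called without deletion zygote library 2 (0.73, adjusted p = 4.72e-04) and Stambpl1 without deletion zygote library 3 (-0.77, adjusted p = 0.0294). From deletion zygotes to deletion 2-cell embryos 2 of the 5 were called, against 50.0% of all genes. Il23a fell by 1.92 (SE 0.216, adjusted p = 6.01e-07) and did so in all 16 settings tried, with -1.93 when library 3 was left out. Plac1 fell by 0.80 (SE 0.287, adjusted p = 0.027), and by 1.05 without library 3. The Plac1 call was lost without 2-cell deletion library 1, which alone took the difference to -0.37 (adjusted p = 0.209), and without deletion zygote library 2 (adjusted p = 0.0514) or 3 (0.0899). Slc16a6 (-0.33, 95% interval -0.73 to 0.08), Stambpl1 (-0.38, -0.95 to 0.18) and Fabp7 (-0.10, -0.75 to 0.54) were not called. Leaving out deletion 2-cell library 2 gave a call for Stambpl1 (-0.76, adjusted p = 0.0113), and leaving out deletion zygote library 2 gave one for Slc16a6 (-0.63, adjusted p = 0.00292).

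The deletion differences were also compared between groups. The genes were picked by rises in the same libraries, so these tests are not independent of the choice. Between 3-month Gdf9-Cre and 3-week Zp3-Cre oocytes the deletion difference was called changed for 1 of the 5, against 4.89% of all genes called either way. All 5 estimates were larger in the 3-month oocytes, and the median of all genes also lay above 0, at 0.11. That median shifted by -0.10 under median-of-ratios scaling and by -0.13 under quantile normalization. Il23a differed by 1.41 (SE 0.306, adjusted p = 0.0131; called in all 22 settings), with deletion means of 38.3 and 19.7 FPKM over wild-type means of 2.31 and 3.46. For Plac1 the value was 1.04 (95% interval 0.19 to 1.89, adjusted p = 0.15), for Fabp7 0.69 (-0.22 to 1.60), for Stambpl1 0.67 (-0.13 to 1.47) and for Slc16a6 0.60 (0.02 to 1.17). Cre driver and age cannot be told apart here. Summed granulosa markers also moved with this contrast, at 191 to 294 FPKM in Gdf9-Cre libraries against 142 to 150 in wild type, and at 147 to 163 against 149 to 166 at 3 weeks. Their part in the result was not tested.

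Between zygotes and 3-week oocytes the deletion difference changed for 2 of the 5, against 29.4% of all genes, and in opposite directions. For Fabp7 it was larger in zygotes by 1.46 (SE 0.435, adjusted p = 0.0155), with deletion means of 18.4 and 17.2 FPKM and wild-type libraries at no more than 0.621 against at least 2.34. For Stambpl1 it was smaller in zygotes by a log2 value of -1.29 (SE 0.382, adjusted p = 0.0148), with deletion means of 27.2 and 40.5 FPKM and wild-type means of 1.86 and 0.724. Both were called in all 22 settings. The other values were 0.24 for Il23a (95% interval -0.40 to 0.88), -0.19 for Slc16a6 (-0.77 to 0.38) and 0.07 for Plac1 (-0.78 to 0.92). Between 2-cell embryos and zygotes the difference changed for 1 of the 5, against 53.9% of all genes. Slc16a6 differed by -3.98 (SE 0.291, adjusted p = 1.03e-09; -4.11 without library 3; called in all 21 settings). The wild-type level rose to that of the deletion groups, and the deletion level was not called changed. Summed 2-cell embryo markers also differed here, at 337 to 440 FPKM in wild-type 2-cell embryos and 70.8 to 82.9 after deletion, and their part in the result was not tested. The values were 0.36 for Stambpl1 (-0.49 to 1.20), -0.18 for Fabp7 (-1.15 to 0.78), -0.64 for Plac1 (-1.54 to 0.26) and -0.13 for Il23a (-0.81 to 0.55).

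**Figure D2:**
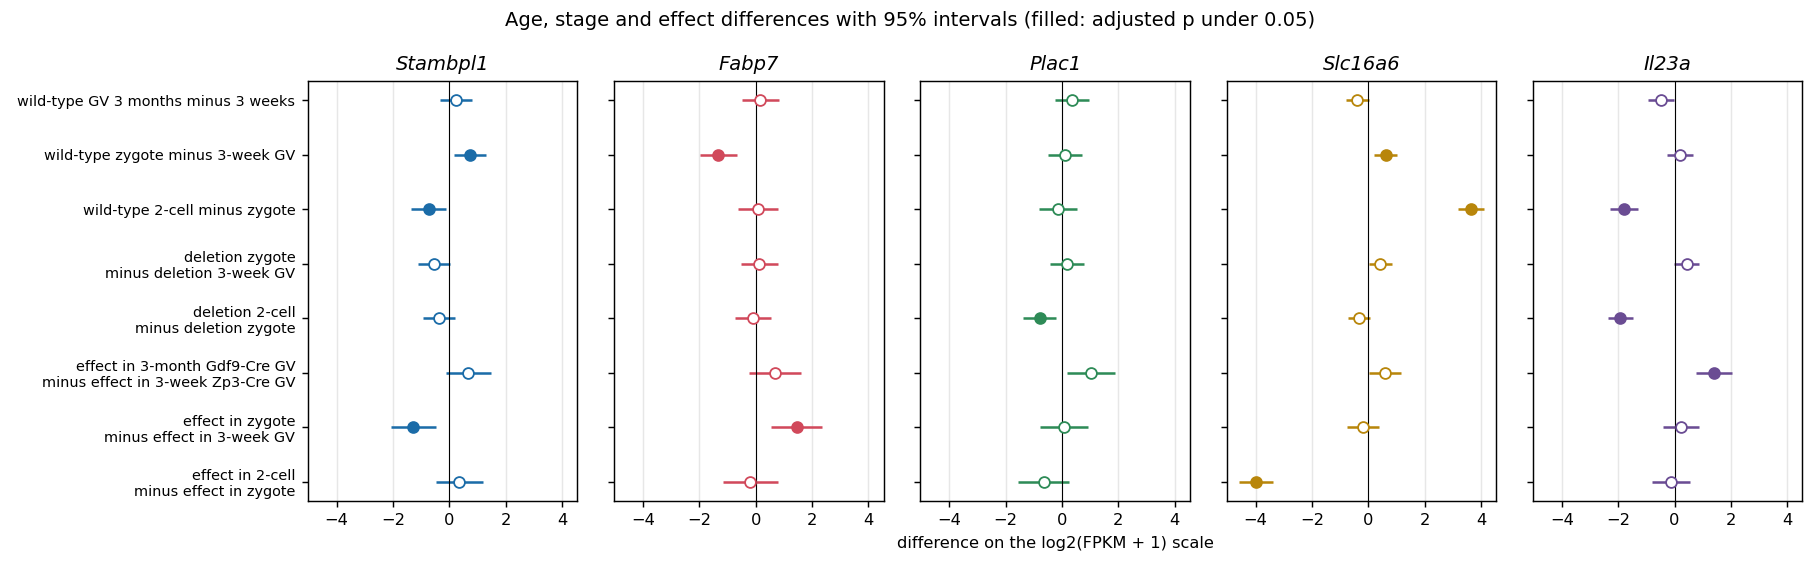
Differences by age and stage and between deletion effects, on the log2(FPKM + 1) scale, with bars for the unadjusted 95% interval and filled points for an adjusted p under 0.05. The Slc16a6 points at 3.65 (wild-type 2-cell minus zygote) and -3.98 (effect in 2-cell minus effect in zygote) lie farthest from 0.

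The close relatives and partners of each gene were set beside it. For Stambpl1 the list held deubiquitinases of its metalloprotease family and their endosomal partners, 23 of which were tested. Of these, 2 rose and none fell in 3-week oocytes (median 0.16), 9 rose and 2 fell in 3-month oocytes (0.21), 15 rose and none fell in zygotes (0.69), and 11 rose and 7 fell in 2-cell embryos (0.31). The same medians over all genes were 0.09, 0.20, 0.22 and 0.16. In 3-month oocytes 3 rose and 3 fell under median-of-ratios scaling and 5 and 3 under quantile normalization. In zygotes 10 rose and 5 fell under either, and in 2-cell embryos more fell (9) than rose (8) under the first. Stambp, the closest relative of Stambpl1 with the same enzyme activity, was at 9.39 FPKM in 3-week wild-type oocytes and 11.2 after deletion (log2 difference 0.22, adjusted p = 0.239). It rose in zygotes from 3.55 to 9.15 FPKM and in 2-cell embryos from 1.80 to 10.6 (log2 difference 2.04, adjusted p = 5.5e-10). Cops5, the catalytic subunit of the COP9 signalosome, rose by 2.54 in zygotes, and Usp8, a deubiquitinase of the endosome, by 2.28. Stam2, an endosomal adaptor of such enzymes, rose by 0.71 in 3-week and 1.14 in 3-month oocytes. Psmd14, the deubiquitinase of the proteasome lid, rose by 1.35 in 3-month oocytes, and its call in 3-week oocytes (0.70, adjusted p = 0.0229) was lost without any 1 of the 3 wild-type libraries or without deletion library 2 or 3 (adjusted p up to 0.0977). By mean level over all 23 libraries Hgs (63.0 FPKM), Cops6 (54.3) and Eif3h (46.9) led this list.

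For Fabp7 the list held other lipid and retinoid carriers, fatty-acid transporters and activating enzymes, and their nuclear receptors, 23 of 32 tested. In 3-week oocytes 2 rose and 4 fell (median -0.0050), in 3-month oocytes 6 rose and 3 fell (0.09), in zygotes 10 rose and 2 fell (0.34) and in 2-cell embryos 9 rose and 4 fell (0.14). The 3-month direction turned under quantile normalization and under median-of-ratios scaling, to 5 higher and 7 lower and to 4 and 6. In 3-week oocytes 1 rose and 7 fell under either, and in zygotes 9 rose and 3 fell under the first and 6 and 5 under the second. Fabp5, the epidermal fatty-acid binding protein, was abundant in wild type and higher still after deletion, at 84.7 against 201 FPKM in 3-week oocytes (log2 difference 1.23, SE 0.133, adjusted p = 1.61e-06). It rose by 1.48 in 3-month oocytes, 0.83 in zygotes (0.24 and not called under median-of-ratios scaling) and 2.07 in 2-cell embryos. Pparg, a lipid-sensing nuclear receptor, fell by 1.12 in 3-week oocytes and rose by 2.08 in zygotes and 2.42 in 2-cell embryos. Cd36, a fatty-acid uptake receptor, rose by 1.17 in zygotes, Rbp7, a retinol carrier, rose by 1.59 in 3-month oocytes (0.263 to 2.87 FPKM), and Slc27a4, a fatty-acid transporter, fell by 2.48 in 2-cell embryos. Acbd3 (170.0 FPKM), Fabp5 (112) and Crabp2 (51.4) had the highest means over all libraries. Neural and glial markers, the other setting of Fabp7, summed to 388 to 464 FPKM in 3-week deletion oocytes against 261 to 276 in wild type, of which the tubulin gene Tubb3 made up 346 to 426 and 251 to 267. In 3-month oocytes the sums were 498 to 578 against 247 to 266. Of their 3 defining genes, Nes was at 2.50 to 2.94 FPKM in 3-week deletion oocytes against 1.49 to 1.69 in wild type, Slc1a3 at 0.197 to 0.315 against at most 0.109, and Snap25 was listed at 0 in all 3 of these deletion libraries. The part of these markers in the result was not tested.

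The monocarboxylate transporters and their chaperones and lactate enzymes, listed for Slc16a6, were called higher more often than lower in each comparison. So were all genes as deposited, with 18.3%, 34.2%, 35.3% and 37.1% called higher and 11.3%, 15.2%, 11.4% and 29.4% lower. Of 17 tested, 6 rose and none fell in 3-week oocytes (median 0.32), 11 rose and none fell in 3-month oocytes (0.54), 8 rose and none fell in zygotes (0.22) and 8 rose and 1 fell in 2-cell embryos (0.35; 3 fell without library 3). Under median-of-ratios scaling 3, 7, 6 and 7 rose and 0, 1, 1 and 3 fell, and under quantile normalization 4, 7, 5 and 9 rose and 0, 1, 0 and 1 fell. Slc16a1, a widespread lactate and pyruvate carrier, went from 4.68 to 8.14 FPKM in 3-week oocytes (log2 difference 0.68, adjusted p = 2.32e-04) and from 5.19 to 19.4 in zygotes (1.73), and in 2-cell embryos it was at 13.7 in wild type and 11.8 after deletion (-0.21, adjusted p = 0.161). Emb, a chaperone that escorts such carriers to the membrane, rose by 1.06 in 3-week oocytes. Ldhb, a subunit of lactate dehydrogenase, rose by 1.5 in zygotes and 2.84 in 2-cell embryos, and Mpc2, of the mitochondrial pyruvate carrier, fell by 2.18 in 2-cell embryos. Ldha, the other main subunit of lactate dehydrogenase, rose by 2.23 in 3-month oocytes (1.59 to 11.9 FPKM), as did Slc16a4, a member of the transporter family, by 1.55 (0.155 to 2.39 FPKM). Ldhb (2189 FPKM), Bsg (44.9) and Slc16a10 (31.0) had the highest means over all libraries.

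For Plac1 the list joined the oocyte-secreted relatives with trophoblast genes, 20 of 35 tested. In 3-week oocytes 4 rose and 5 fell, in 3-month oocytes 8 rose and 5 fell, in zygotes 6 rose and 5 fell, and in 2-cell embryos 7 rose and 7 fell, with medians of 0.22, 0.23, 0.24 and 0.33. In 3-month oocytes 7 rose and 6 fell under median-of-ratios scaling and 6 and 6 under quantile normalization. Under the former 6 rose and 6 fell in zygotes, and 6 rose and 8 fell in 2-cell embryos. Krt8, a keratin of simple epithelia and trophoblast, rose by 1.95 in 3-week oocytes (SE 0.555, adjusted p = 0.0123; 1.64 and 0.0639 without deletion library 3) and by 3.52 in 3-month oocytes. Sox3, an X-linked transcription factor, rose by 3.97 in 3-month oocytes. Phlda2, an imprinted growth regulator of the placenta, rose by 1.23 in 3-week oocytes and 1.93 in zygotes. Oosp2, an oocyte-secreted relative of Plac1, rose by 1.60 in zygotes and 3.56 in 2-cell embryos. Plac9b fell by 2.61 in 2-cell embryos, from 5.47 to 0.058 FPKM. The oocyte-secreted genes Oosp1 (1023 FPKM), Oosp3 (306) and Oosp2 (152) had the highest means over all libraries, so unlike Plac1 they were abundant.

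For Il23a the list held the interleukin-12 family, its receptors and their signalling chain, 24 of 32 tested. In 3-week oocytes 3 rose and 4 fell (median -0.01), in 3-month oocytes 4 rose and 3 fell (0.11), in zygotes 6 rose and 5 fell (0.08) and in 2-cell embryos 9 rose and 5 fell (0.28). The zygote direction turned under both scalings, to 2 higher and 9 lower and to 4 and 7, and in 3-month oocytes 3 rose and 3 fell under either. Il12b and Il23r were named after their values were seen, because they are the partner subunit and the receptor. Il12b had group means of 0.051 to 1.15 FPKM in all 8 groups, and its call in 2-cell embryos (0.93, adjusted p = 0.0403) was lost without library 3 (0.60, adjusted p = 0.174), without library 1 or without either wild-type library. Il23r fell by 0.62 in 3-week oocytes (1.89 to 0.922 FPKM, adjusted p = 0.0246; lost without wild-type library 2 or 3 or deletion library 3, adjusted p up to 0.154) and by 0.65 in 3-month oocytes (adjusted p = 0.0109; 0.0639 without deletion library 2). Stat3, which acts downstream of many cytokine receptors, rose by 0.95 and 1.07 in oocytes of 3 weeks and 3 months, and Stat4 fell by 1.29 at 3 weeks. Socs3, a feedback inhibitor of these pathways, rose by 2.47 in zygotes and fell by 2.49 in 2-cell embryos. Nfkb1, a subunit of NF-kappa-B, fell by 1.58 in 3-month oocytes, Il22, a cytokine induced by interleukin-23 in lymphocytes, rose by 1.47 in zygotes, and Il6ra, the interleukin-6 receptor, fell by 3.35 in 2-cell embryos. Jak2 (141 FPKM), Stat3 (79.8) and Socs1 (44.2) had the highest means over all libraries. The 19 immune-cell markers in the table summed to 23.3 to 28.8 FPKM in 3-month deletion oocytes against 5.53 to 7.06 in wild type. Of their 3 defining genes Ptprc and Tyrobp were listed at 0 in all 6 of these libraries, and Csf1r was at 0.246 to 0.634 FPKM after deletion against at most 0.084. Cd68, a lysosomal marker of macrophages on the list, had means of 6.18 FPKM after deletion and 0.709 in wild type (log2 difference 2.14, adjusted p = 2.31e-06). It is neither a defining gene nor covered by the rule for named genes. Fcgr3, another marker on the list, was at 0.432 to 0.678 FPKM after deletion against 0.410 to 1.25 in wild type. In 3-week oocytes the sums were 12.7 to 19.2 against 7.36 to 9.56. The part of these markers in the Il23a level was not tested.

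**Figure D3:**
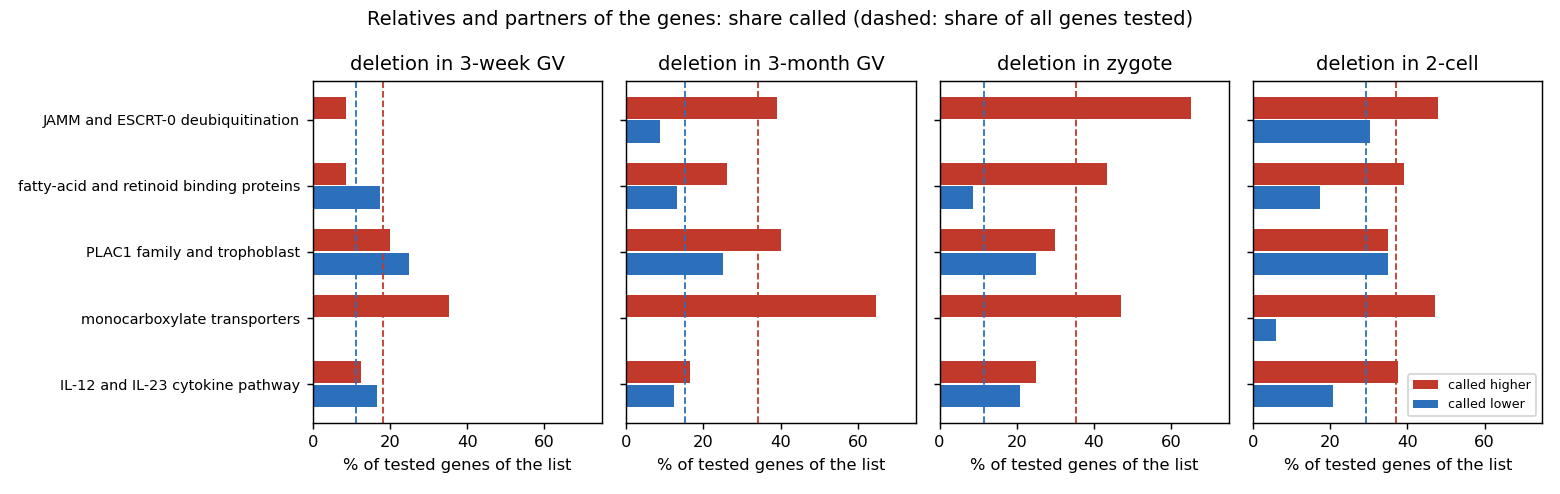
Share of the tested genes of each list called higher (red) or lower (blue) after deletion, in percent, in the 4 comparisons, with dashed lines at the share of all 13776 genes. The monocarboxylate list has 11 of 17 called higher in 3-month oocytes and the deubiquitinase list 15 of 23 in zygotes, above the dashed lines at 34.2% and 35.3%.

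Genes next to the 5 on the chromosome were examined as well. By order in the RefSeq gene table, 2 protein-coding neighbours were taken on each side, 20 in all, of which 19 were in the expression table and 14 passed the filter. Of these 14, 4 were called higher and 1 lower in 3-week oocytes, 7 and 1 in 3-month oocytes, 4 and 3 in zygotes, and 8 and 2 in 2-cell embryos (6 and 2 of 13 without deletion library 3), with medians of 0.22, 0.56, 0.12 and 0.57. Over all genes 18.3%, 34.2%, 35.3% and 37.1% were called higher and 11.3%, 15.2%, 11.4% and 29.4% lower, with medians of 0.09, 0.20, 0.22 and 0.16. The neighbours' share called higher and their median lay below those of all genes in zygotes. In 3-week oocytes, 3-month oocytes and 2-cell embryos both lay above. The largest difference of any neighbour was 1.09 in 3-week oocytes (Wipi1, an autophagy gene 2 places from Slc16a6), 1.27 in 3-month oocytes (Serinc1, a serine incorporator near Fabp7), 1.22 in zygotes (Amz2, beside Slc16a6) and 1.45 in 2-cell embryos (Wipi1). Without deletion library 3 the Cnpy2 call in 2-cell embryos went from 1.20 (adjusted p = 0.0258) to 0.43 (adjusted p = 0.135). Serinc1 and Wipi1 were called higher in all 4 comparisons. The Serinc1 call was lost in 2-cell embryos without library 3 (0.22, adjusted p = 0.126) or wild-type library 2 (0.44, adjusted p = 0.174), and under median-of-ratios scaling in 2-cell embryos (0.32, adjusted p = 0.148) and zygotes (0.41, adjusted p = 0.0516). The Wipi1 call was lost in zygotes under both scalings (0.23, adjusted p = 0.261). Beside Stambpl1, Ankrd22 differed by -0.42 in 3-week oocytes (adjusted p = 0.182) and fell by 2.02 in 2-cell embryos. Stat2, a transducer of interferon signals beside Il23a, differed by -0.21 and -0.11 in oocytes, was not called there, and fell by 1.87 in 2-cell embryos. Beside Plac1, Fam122b fell by 0.83 in 3-week oocytes and 0.75 in zygotes and rose by 1.21 in 2-cell embryos. Phf6 fell by 0.42 in 3-month oocytes and 0.34 in zygotes, rose by 1.10 in 2-cell embryos and differed by -0.05 in 3-week oocytes. The housekeeping gene Hprt, on the other side of Plac1, rose by 0.52 in 3-week and 0.65 in 3-month oocytes. The remaining tested neighbours Fas, Smpdl3a, Gna13, Arsg and Pan2 lay between -0.28 and 1.06 in all 4 comparisons. The 5 neighbours that did not pass the filter, Lipm, Acta2, Pkib, Apof and Fam122c, stayed under 1 FPKM in all 23 libraries.

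**Figure D4:**
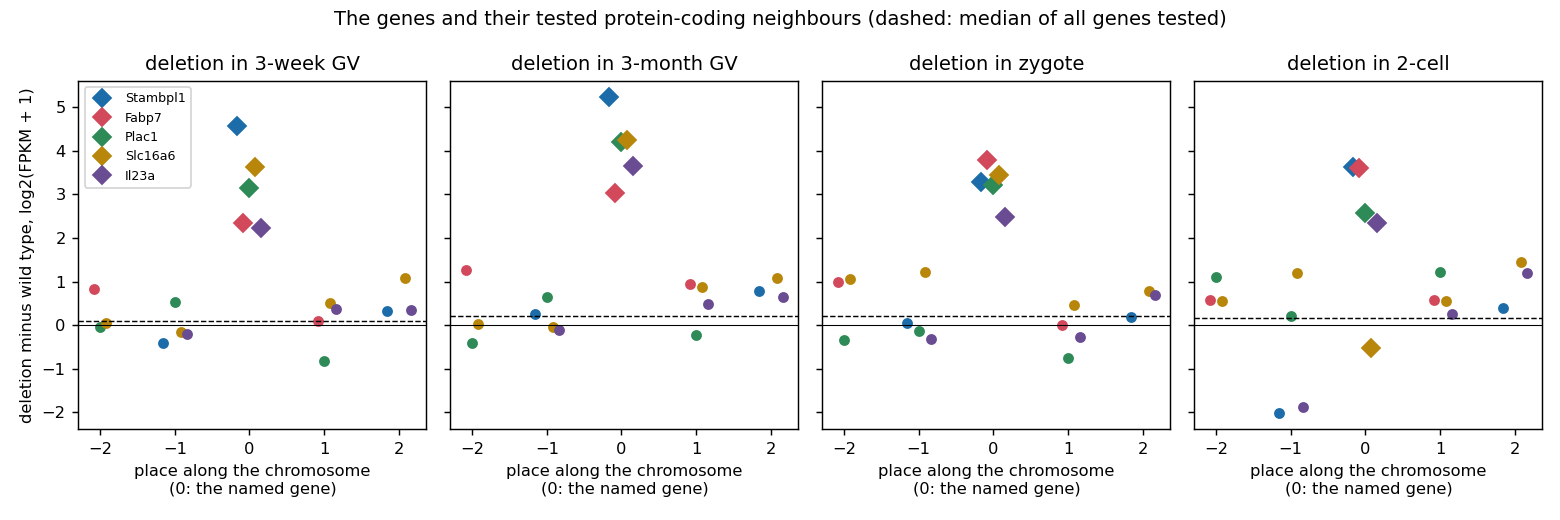
Deletion minus wild type on the log2(FPKM + 1) scale for each of the 5 genes (diamonds at place 0) and for its tested protein-coding neighbours (circles of the same colour at the 1st and 2nd place on either side), in the 4 comparisons, with a dashed line at the median of all genes. Neighbours reach at most 1.45, and the diamonds lie between 2.24 and 5.23 except for Slc16a6 in 2-cell embryos at -0.53.

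The pattern over all 23 libraries was compared between genes by Pearson's r on the log2(FPKM + 1) scale, among 9737 genes with a group mean of at least 5 FPKM in some group. These values are descriptions. Every such gene shares the deletion and wild-type libraries, and the 23 points fall into 8 groups. Stambpl1 and Plac1 were each the gene most like the other (r = 0.975, and 0.989 over the 8 group means). After Plac1, Stambpl1 was most like Pls3, an actin bundler (0.964), Hoxd13 (0.957), Fam174b (0.951) and L3mbtl3, a reader of methylated histones (0.938). The list for Plac1 held Pls3 (0.954), Fam174b (0.947), Hoxd13 (0.944) and Glrb, a glycine receptor subunit (0.941). Thus 3 genes that are not members appeared in both lists. Pls3 lay at 1.28 and 1.51 FPKM in wild-type oocytes of 3 weeks and 3 months and at 12.7 and 20.0 after deletion.

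Fabp7 was most like Lmo3 (0.963), the glutathione transferase gene Gstp2 (0.952), Rtn3 (0.949), Ces1d (0.945) and Lgi2 (0.942). Il23a was most like L3mbtl3 (0.969), Susd3 (0.959), Acadsb (0.934), Arxes2 (0.926) and the heparanase gene Hpse (0.919). Slc16a6, with its high wild-type 2-cell level, was most like Gm29766 (0.937), Tmeff2 (0.925), the small heat-shock gene Hspb1 (0.917), Ino80c (0.917) and Nadk2 (0.911). Hspb1 also was at 12.4 FPKM in wild-type zygotes and 68.0 in wild-type 2-cell embryos. Among the members themselves r ran from 0.532 (Slc16a6 and Il23a) to 0.975. Each of the 4 pairs with Slc16a6 was at 0.738 or below while the 6 pairs without it were at 0.854 or above. The members were picked as low in wild type and high after deletion. A high r between them, that of Stambpl1 and Plac1 included, follows in part from that choice. With Spearman's rho in place of Pearson's r, 1, 0, 1, 0 and 2 of the 5 most alike genes were retained for Stambpl1, Fabp7, Plac1, Slc16a6 and Il23a, and without deletion 2-cell library 3, 4, 4, 3, 4 and 4.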

How the data were processed

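Libraries were made from mouse GV oocytes, zygotes and 2-cell embryos with a NEBNext Ultra RNA kit after column purification, per the labels' protocols. The authors deposited FPKM per gene in 1 table with a column for each of the 23 libraries. The submitters' processing notes name CASAVA 1.4, Cufflinks 2.2.1, TopHat2 2.0.12 and, without a version here, SAMtools. For strand, gene annotation and the choice between mm10 and mm9 the entry is: not given in the sources used here. Reads of overlapping or antisense genes may thus be mixed. FPKM holds no counts, so depth is unknown and no counting error is given. FPKM is relative to the total of a library, and these totals ran from 295901 to 420415.

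From the deposited FPKM, log2(FPKM + 1) was computed, and 13776 genes with at least 1 FPKM in at least 2 libraries were fitted with 8 group means in limma 3.58.1 (R 4.3.3; mean-variance trend, 15 residual degrees of freedom). P-values were adjusted over all genes by the Benjamini-Hochberg method, with a call under 0.05. The script was tested on simulated data. The members and the lists were chosen with earlier results of these data known, as were the tests. Named genes were the 5 members, Cxxc1, per list the 3 genes with the highest mean and, per comparison, up to 2 called genes with the largest change (mean of at least 1 FPKM), 2 neighbours on each side, and the 5 genes most alike in r. Counts of list genes use only those that passed the filter. Other pseudocounts, filters, scalings, array weights, a replicate block, fits of single comparisons and leaving out each library were tried.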

Additional observations from a re-analysis of the deposited data

Results flagged for a closer look

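In 4 results the deletion difference of a gene was not the same between groups by a test of that difference itself (limma, log2(FPKM + 1) scale, adjusted over all genes). Such tests are not independent of the choice of the genes, which used rises in the same libraries. For Fabp7 it was 1.46 larger in zygotes than in 3-week oocytes (adjusted p = 0.0155), and for Stambpl1 the change between the same groups was -1.29 (adjusted p = 0.0148). For Il23a it was 1.41 larger in 3-month Gdf9-Cre than in 3-week Zp3-Cre oocytes (adjusted p = 0.0131), where driver and age cannot be told apart. For Slc16a6 it changed by -3.98 between zygotes and 2-cell embryos (adjusted p = 1.03e-09), with wild-type 2-cell libraries at 37.9 and 40.9 FPKM against 2.10 to 2.36 in wild-type zygotes.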

How the results depend on the processing

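The 4 median differences of the 5 genes stayed between 2.23 and 5.16 in every setting. With a pseudocount of 0.1 they were 4.41, 5.16, 3.88 and 3.96 in 3-week and 3-month oocytes, zygotes and 2-cell embryos, with 0.5 they were 3.74, 4.64 and 3.14 (3-week, 3-month, 2-cell), under median-of-ratios scaling 3.86 (3-month), and under quantile normalization 2.81, 3.82 and 2.69 (3-week, 3-month, zygote). All genes called higher numbered 1527, 2827 and 2803 in 3-week and 3-month oocytes and zygotes under median-of-ratios scaling, and 2822 and 2817 in the last 2 under quantile normalization. Genes called lower numbered 3236 in 3-month oocytes under quantile normalization, and 4047 and 3498 in zygotes under the 2 scalings. These scalings moved the median of all genes by -0.53 to 0.55, and both centre the libraries. Of the 5 genes, calls between wild-type ages numbered 1 with array weights (0 to 1 leaving out a library). From deletion oocytes to zygotes they numbered 2 under each scaling, 1 with array weights and 2 with only the groups compared (0 to 1). From deletion zygotes to 2-cell embryos they numbered 1 with either smaller pseudocount or only the groups compared (1 to 3). The effect in Gdf9-Cre against Zp3-Cre oocytes was called for 3 with array weights and 2 with only the groups compared, and that in 2-cell embryos against zygotes for 3 under quantile normalization and 2 with array weights. Among called results the direction turned for Pan2 in 2-cell embryos (-0.0252) and Stat3 in zygotes (-0.11) under median-of-ratios scaling, and for Il23a between the 2-cell and zygote effects under quantile normalization (0.79, adjusted p = 0.0348). Of 3346 recomputed tests 3185 stayed on the same side of the threshold and, where called, kept their direction. In 93 of these, not called either way, the sign changed, 31 of them for the 5 genes (Fabp7 between deletion zygotes and 2-cell embryos, for example, went from -0.10 to 0.21 without deletion 2-cell library 3). The replicate number was tried as a replicate block, although libraries of the same number deviated together little at most (r -0.07 to 0.08 between pairs of groups). Each library had 3 to match in the other group, so about 1 in 3 would match its own number without any pairing. In all, 15 of 42 libraries correlated best with their own number. Between deletion 3-week oocytes and deletion zygotes it was 6 of 6 (r 0.03 to 0.08), and in each other pair of groups at most 2 of 6. With the replicate block 2 of the 5 genes instead of 3 were called from wild-type zygote to 2-cell embryo, and Stambpl1 there was at -0.69 (adjusted p = 0.0566). The causes of these changes were not tested. Without counts, depth sets no stated limit, and values under about 1 FPKM carry an error that these files do not show.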
